A study of Mus musculus with 11 samples.

Results

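The X-linked miRNA cluster between Slitrk2 and Fmr1 was described across 11 mouse small RNA libraries. Its members were the rows of the count table that carry the name of a mature arm of 1 of 19 miRNAs (miR-201, miR-463, miR-465a, miR-465b, miR-465c, miR-470, miR-471, miR-509, miR-547, miR-741, miR-742, miR-743a, miR-743b, miR-871, miR-878, miR-880, miR-881, miR-883a and miR-883b). This gave 35 rows for 18 of the names, out of 2304 rows in all, of which 1592 are mature miRNAs and 712 are endogenous siRNAs. miR-509 was not analysed here.

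A miRNA begins as a hairpin within a longer transcript. The nuclear enzyme Drosha cuts the hairpin free, and Dicer then removes its loop in the cytoplasm, which leaves a 5p and a 3p arm of which either can be loaded into an Argonaute protein. Bases 2 to 8 of the loaded arm, the seed, pair with target messenger RNAs. The cluster belongs to a rapidly evolving mammalian family of X-linked miRNAs that is known for its expression in the testis, in spermatogenic cells, at stages when most genes of the X chromosome are silenced.

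All mice were adult and of the C57BL/6 strain. Sperm from the cauda epididymis came from wild-type (WT) males in 2 libraries, from males in which Dicer was deleted conditionally in the germ line (cKO) in 2, and from males with the same kind of Drosha cKO in 3. The knockouts were made with floxed alleles and Cre, and the labels do not name the Cre driver. WT oocytes, taken from oviducts after superovulation, gave 1 library. Embryos at the 2PN stage, in which both parental pronuclei are present, were made by injecting WT, Dicer cKO or Drosha cKO sperm into eggs and gave 1 library each. The testis itself was not sampled, and messenger RNA was not measured, so the deletions of Dicer and Drosha were not checked. Nothing in the labels ties replicate libraries to different animals, and p-values measure the spread between these libraries, which may be technical.

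Depth differed widely. The reads listed in the table ran from 12003 to 278890 among sperm libraries and from 2951 to 8967 among oocyte and 2PN libraries. Drosha cKO replicates 2 and 3 were the shallowest sperm libraries, with 12003 and 15921 listed reads, so that 1 read there weighs 83.3 and 62.8 CPM (reads scaled to 1000000 listed reads). The second WT library stood apart in scale, with a TMM factor of 0.493 against 0.907 in the first and 1.05 to 1.31 in the cKO libraries. As a check of the label, miR-34b, miR-34c, miR-449a and miR-184, which mark male germ cells, made up 16.4% to 18.3% of listed reads in WT sperm.

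In the RefSeq annotation of GRCm38.p6 the names correspond to 21 hairpins, all on the minus strand of chromosome X, and none overlaps another annotated gene. In the main group, 18 hairpins lie within 62.4 kb (chrX:66776757-66839125), 115 kb past Slitrk2 and 1839 kb short of Fmr1. The hairpins of miR-201, miR-547 and miR-509 form a second group of 22.1 kb (chrX:67988096-68010179), 1149 kb further along and 668 kb from Fmr1 (chrX:68678536-68717963).

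Mature sequences of all 35 members were matched in RefSeq. The sequences below are those of the members that held most reads or whose copies bear on how reads were assigned, printed 5′ to 3′ with the seed in capitals. The first set shares or nearly shares a 3p seed, and its top pair led the cluster in WT sperm.
miR-743a-3p: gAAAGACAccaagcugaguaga
miR-743b-3p: gAAAGACAucaugcugaauaga
miR-742-3p: gAAAGCCAccaugcuggguaaa
miR-743a-3p and miR-743b-3p have the same seed and are identical at 19 of 22 positions, with the differences C9U, A12U and G18A, counted from 1 at the 5′ end with the base of miR-743a-3p first. miR-742-3p differs from miR-743a-3p by A6C, A12U, A17G and G21A, the first of which falls in the seed.

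The miR-465 family is shown because its copies set how reads can be told apart.
miR-465a-3p: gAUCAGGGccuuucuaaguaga
miR-465b-3p: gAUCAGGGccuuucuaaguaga
miR-465c-3p: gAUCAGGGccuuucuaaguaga
miR-465a-5p: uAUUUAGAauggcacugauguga
miR-465b-5p: uAUUUAGAauggugcugaucug
miR-465c-5p: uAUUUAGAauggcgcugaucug
The 3p arms of miR-465a, miR-465b and miR-465c are identical over all 22 bases. In sperm the authors' table credits reads of that sequence to miR-465a-3p alone, and the rows of miR-465b-3p and miR-465c-3p are at 0 in all 7 sperm libraries. The miR-465a-3p row therefore stands for the family. The 5p arms share a seed but can be told apart, since miR-465a-5p differs from miR-465b-5p by C13U, A14G and G20C and from miR-465c-5p by A14G and G20C.

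The remaining abundant arms are printed with the pair miR-883a-3p and miR-883b-3p, which share a seed and differ by G12U alone, and with the pair miR-743a-5p and miR-871-5p, which share a seed and are identical at 20 of 22 positions.
miR-880-3p: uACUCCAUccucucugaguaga
miR-741-3p: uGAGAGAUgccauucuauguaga
miR-463-5p: uACCUAAUuuguuguccaucau
miR-878-3p: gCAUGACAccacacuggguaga
miR-881-3p: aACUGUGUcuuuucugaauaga
miR-471-5p: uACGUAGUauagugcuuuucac
miR-883a-3p: uAACUGCAacagcucucaguau
miR-883b-3p: uAACUGCAacaucucucaguau
miR-743a-5p: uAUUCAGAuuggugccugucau
miR-871-5p: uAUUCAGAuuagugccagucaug
The 3p arms often end alike. After the sequences were seen, the letters GUAGA were searched along each arm, on the arm's own strand. They were found in 7 of 18 member 3p arms (38.9%) against 7 of 691 other mouse 3p arms in RefSeq (1.01%). The letters UUCAGA were found in 3 of 17 member 5p arms (17.6%) against 4 of 680 others (0.588%). The 7 include the identical 3p arms of miR-465a, miR-465b and miR-465c, so that sequence is counted 3 times. These counts are descriptions of related sequences, and several matches come from near copies.

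The hairpins at the 2 most abundant loci show how the arms sit in the precursor, with the mature arms in capitals. The first is miR-743a at chrX:66776757-66776818 and the second is miR-743b at chrX:66777256-66777332, both on the minus strand and with 437 bases between them.
miR-743a hairpin: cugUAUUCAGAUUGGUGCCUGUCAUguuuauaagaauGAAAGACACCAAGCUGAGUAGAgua
miR-743b hairpin: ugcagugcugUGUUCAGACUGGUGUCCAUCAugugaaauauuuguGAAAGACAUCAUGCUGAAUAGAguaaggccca

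In WT sperm the cluster was a large component of the listed RNA. Its 35 members made up 7.23% and 6.29% of listed reads in the 2 libraries, a mean of 6.76% ± 0.667 (SD, n = 2). In Dicer cKO sperm the share was 0.527% and 0.552%, a mean of 0.539% ± 0.0178 (SD, n = 2), 12.5-fold lower. In Drosha cKO sperm it was 0.992%, 0.533% and 0.930%, a mean of 0.818% ± 0.249 (SD, n = 3), 8.26-fold lower. Both WT libraries lay above all 5 cKO libraries, and the ranges of the 2 cKO groups overlapped. These shares are descriptions without a test, and a bulk library cannot separate fewer cells of a type from less RNA per cell.

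The order of the 2 knockouts depended on the scale. On the authors' RPM scale, which divides each count by a larger number per library that the sources used here do not define, the summed level was 1559 and 6322 RPM in WT, 233 and 387 in Dicer cKO, and 267, 155.1 and 196 in Drosha cKO sperm. The mean was 310 ± 109 RPM in Dicer cKO (SD, n = 2) and 206 ± 56.8 in Drosha cKO (SD, n = 3), so Dicer cKO stood higher on this scale and lower as a share of listed reads. Both knockouts were below both WT libraries on either scale.

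**Figure D1:**
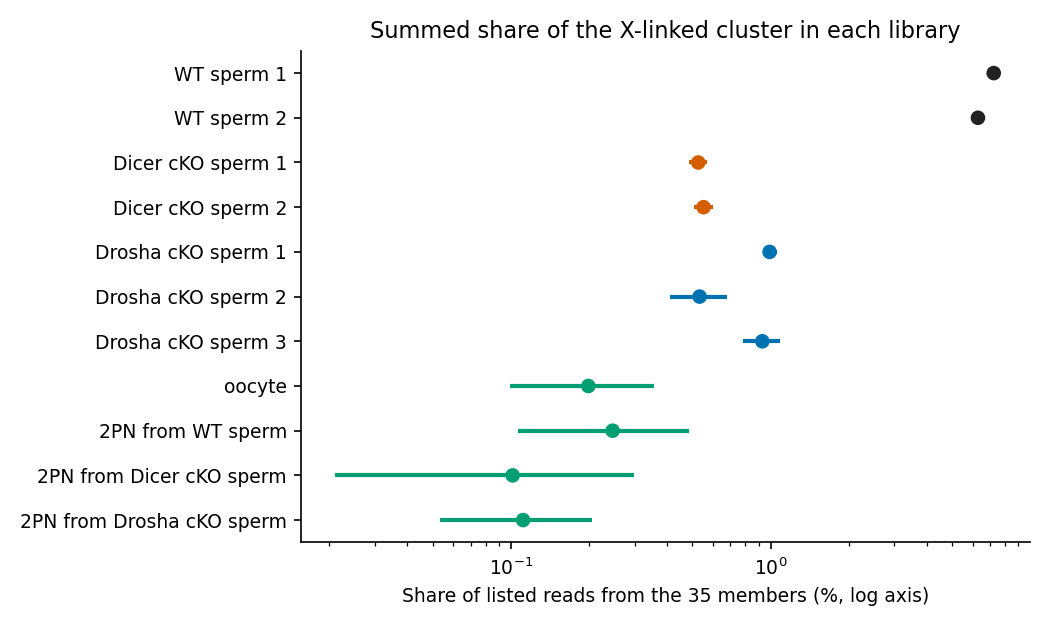
Share of listed reads from the 35 members in each of the 11 libraries (percent, log axis), with 95% exact binomial intervals that cover counting error only and are narrower than the points in deep libraries. The 2 WT sperm libraries sit at 7.23% and 6.29%, the 5 cKO sperm libraries between 0.527% and 0.992%, and the oocyte and 2PN libraries between 0.102% and 0.247%.

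A few 3p arms dominated WT sperm. The highest was miR-743a-3p, with a mean of 11008 ± 4168 CPM (SD, n = 2), followed by miR-743b-3p at 9670 ± 2534 CPM, miR-880-3p at 6327 ± 1133, miR-465a-3p at 5864 ± 2096 and miR-741-3p at 5670 ± 848. With spreads of this size these 5 neighbours in the order do not separate beyond their SDs, except that miR-743b-3p stood above miR-880-3p by more than either SD, with no overlap between the 2 libraries of each. miR-743a-3p ranked 15 and 23 among all features of the 2 WT libraries, and miR-743b-3p ranked 22 and 26.

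Next in WT sperm were miR-463-5p at 3023 ± 999 CPM, miR-465c-5p at 2770 ± 236, miR-742-3p at 2375 ± 804, miR-878-3p at 2275 ± 480, miR-883a-3p at 2215 ± 376, miR-881-3p at 1930 ± 585 and miR-471-5p at 1846 ± 1512 (SD, n = 2 each). The first 12 members together held 84.4% and 77.8% of member reads in WT, 77.8% and 74.5% in Dicer cKO, and 84.8%, 78.1% and 77.7% in Drosha cKO sperm. The 4 leading members alone held a larger share in WT (55.2% and 41.1%) than in Dicer cKO (39.4% and 32.2%), while Drosha cKO libraries ranged from 26.6% to 46.8% and overlapped WT. The first 4 and the first 12 were picked by their level in these same WT libraries, which favours a higher share there. No shift of composition is read from these shares. At the low end, miR-201, miR-547 and miR-881-5p had at most 2 reads per arm in either WT library. The mature arms are 21 to 23 bases long, so no scaling by length was applied.

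**Figure D2:**
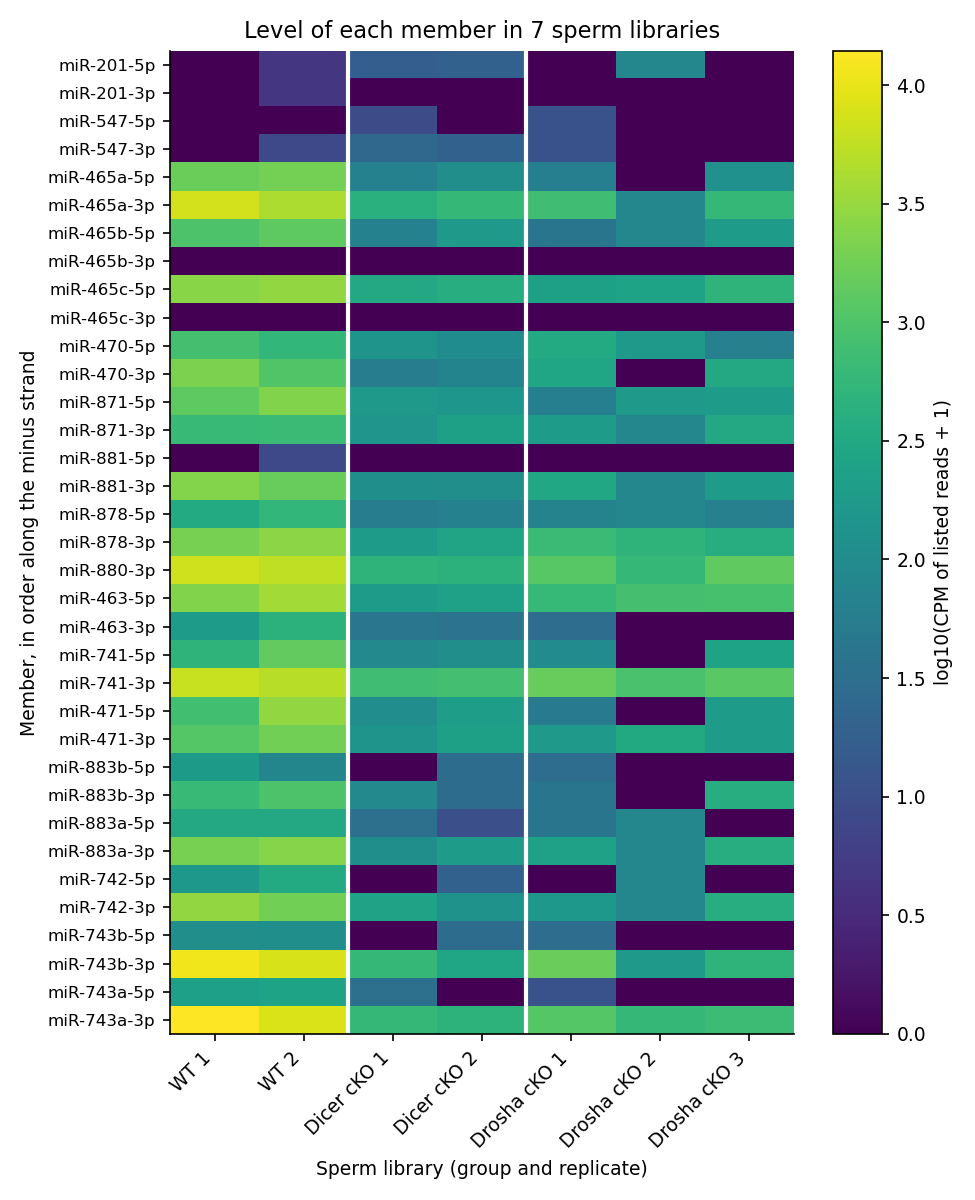
Level of each of the 35 members (rows, in order along the minus strand, except that miR-201 is drawn before miR-547) in the 7 sperm libraries (columns), as log10 of CPM + 1. Most rows are bright in the 2 WT columns and darker in the 5 cKO columns. The 4 arms of miR-201 and miR-547 at the top are dark in most cells, the brightest being miR-201-5p in Drosha cKO replicate 2, where 1 read gives 83.3 CPM.

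Dicer cKO sperm had lower levels of every member that could be tested. Of the 35 members, 27 passed the filter on low counts, and all 27 of these fell (edgeR's quasi-likelihood test with Benjamini-Hochberg adjustment, adjusted p from 2.05e-05 to 0.0126), against 31% called lower among all 335 features tested and 25% among the 308 tested outside the cluster. The median change was -4.29 on the log2 scale, from -5.50 for miR-742-5p to -2.55 for miR-871-3p, beside a median of 0.03 over all features tested. Both medians depend on the scaling. With library totals alone in place of TMM factors, they were -3.55 for the members and 0.60 for all features. Of the 27, 20 reached the filter's cutoff of 99.1 CPM in at least 2 cKO libraries, and these 20 had a median of -4.28, from -5.15 for miR-470-3p to -2.55 for miR-871-3p, with adjusted p of at most 0.00828. The other 7 (miR-463-3p, miR-742-5p, miR-743a-5p, miR-743b-5p, miR-878-5p, miR-883a-5p and miR-883b-3p) passed only with the help of a WT library, which fixed the direction of any difference they could show, so their calls carry no weight of their own.

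Drosha cKO sperm also had lower levels of every tested member. All 27 tested members fell (edgeR, adjusted p from 1.08e-05 to 0.0231), against 33.1% called lower among all 335 features and 27.3% of the 308 outside. The median change was -4.14, from -5.86 for miR-471-5p to -2.51 for miR-470-5p, beside 0.05 over all features. With library totals alone, the medians were -3.125 for the members and 1.04 for all features. The 20 members that passed without the WT libraries had a median of -4.15 and adjusted p of at most 0.00618. The 2 comparisons share their WT libraries, so their values are not independent. Where 2 changes are given for a member below, Dicer cKO comes first and Drosha cKO second.

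The miR-743 pair, which shares a seed, had some of the steepest changes among abundant members. miR-743a-3p stood at 13955 and 8061 CPM in WT, 577 and 472 in Dicer cKO, and 1129, 583 and 691 in Drosha cKO sperm. All 5 cKO libraries lay far below the lower WT library. Its log2 change was -4.99 ± 0.61 (SE) in Dicer cKO (edgeR, adjusted p = 2.05e-05) and -4.55 ± 0.51 in Drosha cKO (adjusted p = 1.08e-05). miR-743b-3p stood at 11461 and 7878 CPM in WT, 577 and 268 in Dicer cKO, and 1595, 167 and 502 in Drosha cKO sperm. Here the 3 Drosha cKO libraries spread widely, though all stayed under both WT values, and the changes were -5.15 ± 0.83 (adjusted p = 0.000238) and -4.36 ± 0.68 (adjusted p = 0.000141). The related miR-742-3p stood at 2944 and 1807 CPM in WT, 244 and 129 in Dicer cKO, and 159, 83.3 and 377 in Drosha cKO sperm, with changes of -4.27 ± 0.73 and -4.43 ± 0.67 (edgeR, adjusted p = 0.000354 and 0.000102).

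The miR-465 family fell on both arms. The miR-465a-3p row, which stands for the 3p arm of the family, was at 7346 and 4382 CPM in WT, 431 and 573 in Dicer cKO, and 753, 83.3 and 565 in Drosha cKO sperm. The changes were -4.15 ± 0.72 in Dicer cKO (edgeR, adjusted p = 0.000354) and -4.33 ± 0.63 in Drosha cKO (adjusted p = 8.11e-05). The Drosha cKO value of 83.3 CPM is a single read. miR-465c-5p, the highest 5p arm of the family, was at 2603 and 2937 CPM in WT, 317 and 388 in Dicer cKO, and 228, 249.9 and 502 in Drosha cKO sperm, with changes of -3.72 ± 0.68 and -4.15 ± 0.63. miR-465a-5p was at 1622 and 1868 CPM in WT, 65.0 and 111 in Dicer cKO, and 59.4, 0 and 126 in Drosha cKO sperm, with changes of -5.05 ± 0.81 and -5.72 ± 0.79. For these 2 arms the adjusted p was at most 0.000512, and no cKO library reached a WT value.

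Outside the miR-743 pair and the miR-465 family, miR-880-3p and miR-741-3p were the highest 3p arms. miR-880-3p was at 7128 and 5525 CPM in WT, 488 and 462 in Dicer cKO, and 1159, 583 and 1382 in Drosha cKO sperm, and changed by -4.40 ± 0.63 and -3.49 ± 0.52 (edgeR, adjusted p = 9.95e-05 and 0.000102). miR-741-3p was at 6269 and 5070.1 CPM in WT, 748 and 814 in Dicer cKO, and 1536, 916 and 1193 in Drosha cKO sperm, and changed by -3.53 ± 0.59 and -3.11 ± 0.51 (adjusted p = 0.00032 and 0.000187). All 5 cKO libraries stayed below both WT libraries for each of these arms.

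The other leading arms fell as well. miR-463-5p was at 2317 and 3729 CPM in WT, 187 and 231 in Dicer cKO, and 594, 833 and 879 in Drosha cKO sperm, and changed by -4.66 ± 0.72 and -3.08 ± 0.59 (edgeR, adjusted p = 0.000184 and 0.000587). miR-878-3p was at 1935 and 2614 CPM in WT, 195 and 259 in Dicer cKO, and 674, 499.9 and 377 in Drosha cKO sperm, and changed by -4.10 ± 0.72 and -3.10 ± 0.60. These 2 arms lost the least in Drosha cKO sperm among the 12 leading members, together with miR-741-3p. miR-883a-3p was at 1949 and 2481 CPM in WT, 114 and 194 in Dicer cKO, and 238, 83.3 and 377 in Drosha cKO sperm, and changed by -4.61 ± 0.77 and -4.21 ± 0.68. miR-881-3p was at 2344 and 1517 CPM in WT, 114 and 111 in Dicer cKO, and 297, 83.3 and 188 in Drosha cKO sperm, and changed by -4.71 ± 0.74 and -3.99 ± 0.63. For these 3 arms the adjusted p was at most 0.000655 in either knockout, and the single-read values of 83.3 CPM belong to the shallow second Drosha cKO library.

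The extremes of the range were set partly by small counts. miR-471-5p, with the steepest change in Drosha cKO sperm, was at 777 and 2915 CPM in WT, 106 and 213 in Dicer cKO, and 49.5, 0 and 188 in Drosha cKO sperm. Relative to their mean, its WT libraries differed more than those of the other 11 leading members, and its changes were -4.48 ± 0.95 and -5.86 ± 0.96 (edgeR, adjusted p = 0.00129 and 0.000192). miR-742-5p, with the steepest fitted change in Dicer cKO sperm, is 1 of the 7 that passed the filter only through WT, and had 12 and 95 reads in WT, 0 and 2 in Dicer cKO, and 0, 1 and 0 in Drosha cKO sperm. The fitted values of -5.50 ± 1.22 and -5.64 ± 1.34 rest on those few cKO reads and are given as a description. From the summed reads the ratio was 35.1-fold lower in Dicer cKO (95% interval 9.48 to 294, counting error only) and 39.1-fold lower in Drosha cKO (6.88 to 1560).

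The smallest changes were those of miR-871-3p and miR-470-5p. miR-871-3p was at 641 and 663 CPM in WT, 146 and 222 in Dicer cKO, and 188, 83.3 and 314 in Drosha cKO sperm, and changed by -2.55 ± 0.72 and -2.68 ± 0.68 (edgeR, adjusted p = 0.00828 and 0.00402). miR-470-5p was at 845 and 552 CPM in WT, 138 and 102 in Dicer cKO, and 337, 167 and 62.8 in Drosha cKO sperm, and changed by -3.15 ± 0.77 and -2.51 ± 0.68 (adjusted p = 0.00283 and 0.00618). Even here every cKO library was below both WT libraries. The partner arms had larger fitted changes, -4.29 ± 0.78 and -5.06 ± 0.77 for miR-871-5p and -5.15 ± 0.87 and -3.61 ± 0.72 for miR-470-3p. The difference between partner arms was not tested.

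The partner arms of the leading hairpins also had lower levels in the knockouts. For miR-878-5p, miR-463-3p, miR-743a-5p, miR-883a-5p and miR-743b-5p this direction was fixed, since they passed the filter only through WT. The values of those arms are descriptions and add no support. miR-471-3p was at 1131 and 1800.0 CPM in WT, 138 and 222 in Dicer cKO, and 168, 333 and 188 in Drosha cKO sperm, and it outnumbered miR-471-5p in the first WT library, both Dicer cKO libraries and the first 2 Drosha cKO libraries. The partner arms that follow had fewer reads than their leading arm in both WT libraries. miR-741-5p had 36 and 386 reads in WT, 11 and 12 in Dicer cKO, and 10, 0 and 4 in Drosha cKO sperm. miR-878-5p had 25 and 153 reads in WT, 7 and 7 in Dicer cKO, and 7, 1 and 1 in Drosha cKO sperm. Both WT libraries held more reads of each than any cKO library. miR-463-3p had 14 and 130 reads in WT, 5 and 4 in Dicer cKO, and 3, 0 and 0 in Drosha cKO sperm, 17.6-fold lower in the summed reads of Drosha cKO (5.89 to 86.1). miR-743a-5p had 16 and 71 reads in WT, 4 and 0 in Dicer cKO, and 1, 0 and 0 in Drosha cKO sperm, 31.8-fold lower in the latter (5.56 to 1271). miR-883a-5p had 23 and 89 reads in WT, 4 and 1 in Dicer cKO, and 4, 1 and 0 in Drosha cKO sperm. miR-743b-5p was the thinnest tested member, with 8 and 32 reads in WT, 0 and 3 in Dicer cKO, and 3, 0 and 0 in Drosha cKO sperm, ratios of 8.75-fold (2.79 to 44.2) and 4.88-fold lower (1.55 to 24.6). Its fitted changes were -3.70 ± 1.12 and -3.27 ± 1.13 (edgeR, adjusted p = 0.0126 and 0.0231), the highest adjusted p of any tested member in both knockouts, and it too passed the filter only through WT.

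Single libraries decided a few of these calls. In Dicer cKO, miR-871-3p lost its call without Dicer cKO replicate 1 (edgeR, adjusted p = 0.096) and without replicate 2 (adjusted p = 0.0551), with a range of 0.000786 to 0.337 over its 17 alternatives. miR-743b-5p lost its Dicer call without Dicer cKO replicate 1 (adjusted p = 0.155, range 0.00455 to 0.201 over 15 alternatives), and miR-743a-5p without Dicer cKO replicate 2 (adjusted p = 0.0518, range 1.14e-05 to 0.0518 over 17). In Drosha cKO, miR-743b-5p lost its call without replicate 2 (adjusted p = 0.054) or replicate 3 (adjusted p = 0.0554), with a range of 0.00612 to 0.131 over 14 alternatives. The other tested members kept their calls in both knockouts in each fit without 1 library in which they could be tested.

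**Figure D3:**
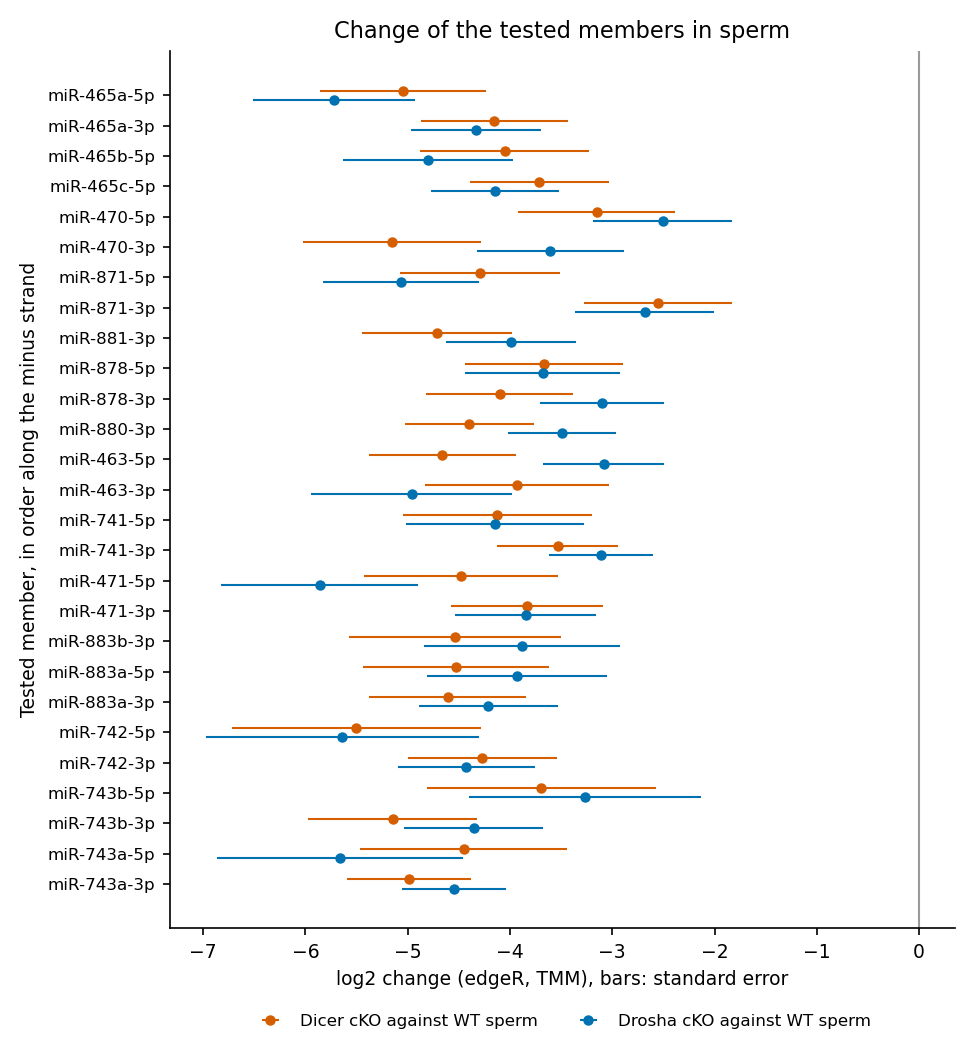
Log2 change of each of the 27 tested members (rows, in order along the minus strand) in Dicer cKO and Drosha cKO sperm against WT sperm, from edgeR with TMM factors, with bars of 1 standard error. All points lie between -5.86 and -2.51, left of the line at 0, and neither knockout lies to one side of the other throughout.

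Dicer cKO and Drosha cKO sperm were then compared with each other. None of the 27 tested members was called in either direction (edgeR, 0% called among all 335 features), and 1 member, miR-463-5p, had an unadjusted p below 0.05. DESeq2 and limma also called none. The members' changes of Dicer cKO against Drosha cKO had a median of 0.01, from -1.58 to 1.38, beside a median of 0.01 over all features tested, with 14 above 0 and 13 below. For miR-463-5p the difference was -1.58 ± 0.64 (edgeR, adjusted p = 0.205, range 0.0683 to 1 over its 17 alternatives).

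Standard errors of the differences between the knockouts ran from 0.50 for miR-743a-3p to 1.56 for miR-742-5p. The lack of a call does not show that the knockouts act alike. By arm, the difference had a median of 0.14 over the 13 tested 5p arms, of which 9 were above 0, and of -0.43 over the 14 tested 3p arms, of which 5 were above 0. The medians over tested 5p and 3p arms outside the cluster were 0.08 and 0.21. These medians describe the members and were not tested.

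The 8 members that did not pass the filter fall into separate kinds. miR-465b-3p and miR-465c-3p had no sperm reads, and their sequence is that of the miR-465a-3p row. miR-881-5p had 2 reads in all, both in the second WT library. miR-883b-5p had 13 and 22 reads in WT, 0 and 3 in Dicer cKO, and 3, 0 and 0 in Drosha cKO sperm. Its summed reads were 7.65-fold lower in Dicer cKO (95% interval 2.41 to 38.9, counting error only) and 4.27-fold lower in Drosha cKO (1.35 to 21.7).

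The remaining 4, both arms of miR-201 and of miR-547, come from the outlying group of hairpins nearer to Fmr1, and their few reads did not show the fall seen in the main group. Their sequences are printed because this contrast rests on them.
miR-201-5p: uACUCAGUaaggcauuguucuu
miR-201-3p: uGAACAGUgccuuucuguguagg
miR-547-3p: cUUGGUACaucuuugagugag
miR-547-5p: cACUUGAGgauguaccaccca
Together these arms had 0 and 4 reads in WT, 6 and 4 in Dicer cKO, and 2, 1 and 0 in Drosha cKO sperm, which is 0 and 14.3 CPM in WT, 48.8 and 37.0 in Dicer cKO, and 19.8, 83.3 and 0 in Drosha cKO sperm. Over summed reads the level in Dicer cKO was 3.81 times that in WT (95% interval 1.10 to 16.6), and in Drosha cKO 2.05 times (0.300 to 12.1). The same ratio for the other 31 members was 12.1-fold lower in Dicer cKO (11.5 to 12.9) and 6.90-fold lower in Drosha cKO (6.52 to 7.32). These intervals cover counting error only and not the spread between libraries. The ratios also use listed reads without TMM factors, which were 0.907 and 0.493 in WT against 1.05 to 1.31 in the cKO libraries. With those factors both ratios of the 4 arms to WT would be lower, so a rise of these arms is not shown. No library held more than 6 reads of the 4 arms, and the difference between the groups of hairpins was not tested across libraries.

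**Figure D4:**
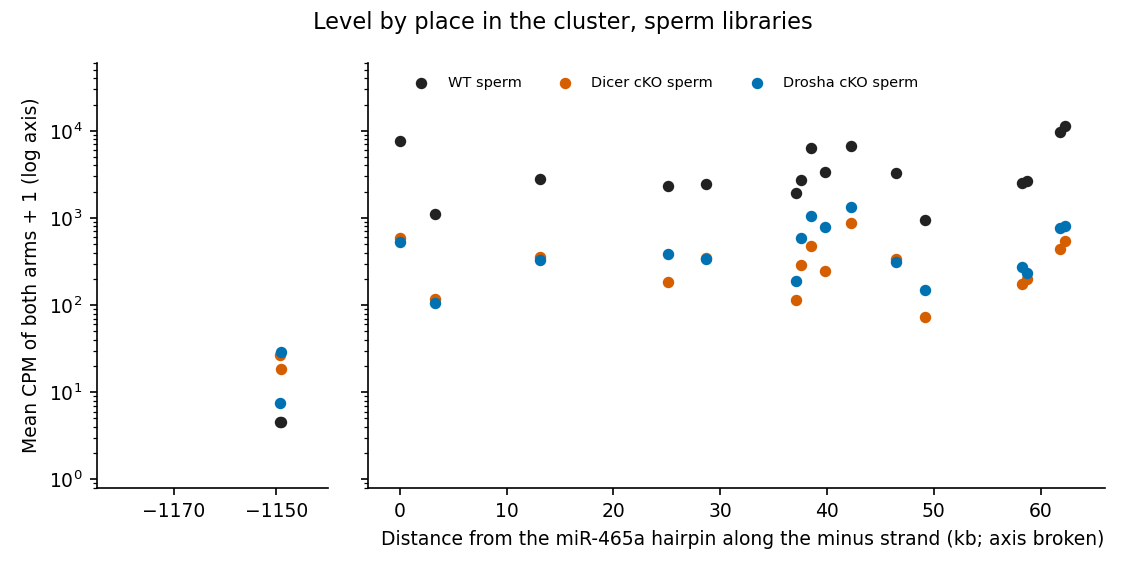
Mean CPM + 1 of both arms (log axis) in WT, Dicer cKO and Drosha cKO sperm for each hairpin, placed by its distance in kb from the miR-465a hairpin along the minus strand, with the axis broken at the gap of 1149 kb. Second copies of miR-465b and miR-465c, which share a row, and miR-509 are not drawn. Every hairpin of the main group has its WT point above both cKO points, while miR-201 and miR-547 lie near the bottom with their WT points lowest.

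Summed over reads, the balance of arms within the cluster differed from that of other miRNAs. In such sums the most abundant hairpins weigh most, and no comparison with other miRNAs was made per hairpin. Over the 17 member hairpins with both arms listed, the 5p arm gave 18.8% and 32.4% of the reads in WT, 26.9% and 32.4% in Dicer cKO, and 18.9%, 38.6% and 31.0% in Drosha cKO sperm. Over the 517 other hairpins with both arms listed, it gave 76.4% and 72.8% in WT sperm, 59.7% and 53.3% in Dicer cKO, and 62.8%, 53.2% and 53.0% in Drosha cKO sperm. The cluster was thus read mostly from its 3p arms in all 7 libraries, and the ranges of the 3 groups overlapped. The 2 WT libraries differed from each other as much as the groups did.

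Single hairpins with at least 20 reads over both arms in a library varied more. The 5p share of miR-470 was 28.3% and 34.3% in WT, against 70.8% in Dicer cKO replicate 1 (95% exact interval 48.9 to 87.4, 24 reads) and 54.0% in Drosha cKO replicate 1 (40.9 to 66.6, 63 reads). In both of these cKO libraries the 5p arm gave the larger count, unlike in WT, though both intervals include an equal split. miR-871 moved the other way, with a 5p share of 66.9% and 77.2% in WT sperm, 53.8% and 40.0% in Dicer cKO, and 24.0% in Drosha cKO replicate 1 (9.36 to 45.1, 25 reads). The intervals of the second Dicer cKO library and of Drosha cKO replicate 1 lie below both WT values, and that of the first Dicer cKO library (37.2 to 69.9) reaches the lower one.

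The other hairpins kept their main arm or had no steady one. miR-463 was read from its 5p arm at 92.4% and 88.9% in WT sperm, 82.1% and 86.2% in Dicer cKO and 95.2% in Drosha cKO replicate 1. miR-743a had a 5p share of 1.54% and 3.06% in WT sperm, 5.33% and 0% in Dicer cKO, where 0 of 51 reads allows up to 5.88%, and 0.870% in Drosha cKO replicate 1. miR-741 had 7.26% and 21.4% in WT sperm, 10.7% and 12% in Dicer cKO, and 6.06% and 17.4% in Drosha cKO replicates 1 and 3. Here the cKO libraries lay within the spread of the WT pair or next to it. miR-471 was at 40.7% and 61.8% in WT sperm, 43.3% and 48.9% in Dicer cKO and 22.7% in Drosha cKO replicate 1, and the pooled miR-465 family at 41.3% and 58.2% in WT sperm, 50.9% and 53.7% in Dicer cKO, and 30.3% and 59.1% in Drosha cKO replicates 1 and 3.

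**Figure D5:**
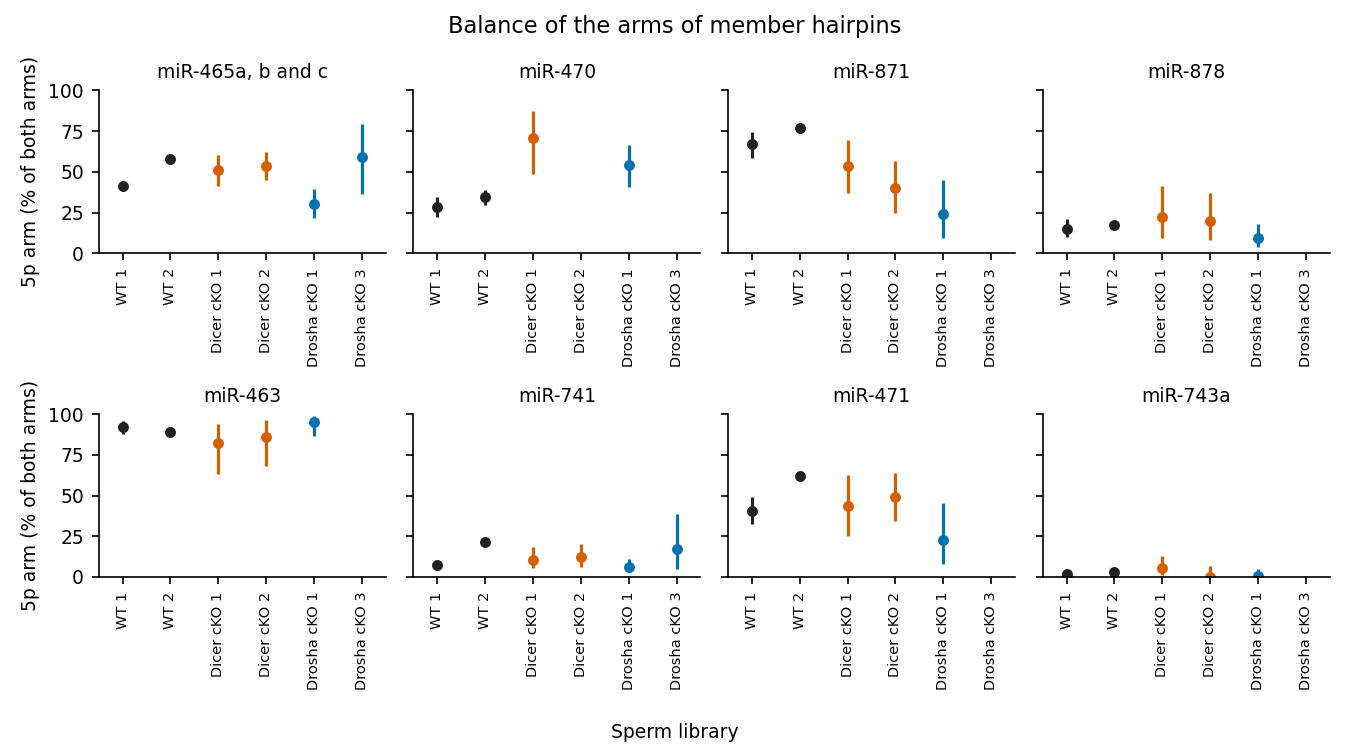
Share of the 5p arm among reads of both arms (percent) for 8 hairpins or families in the sperm libraries with at least 20 reads over both arms, with 95% exact binomial intervals for counting error. Replicate 2 of Drosha cKO had too few reads for any of them. The miR-470 points are higher and the miR-871 points lower in the cKO libraries than in WT, while miR-463 stays high and miR-743a near 0.

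Lists around the cluster were set beside it. miR-465d is a paralog inside the main group that the names do not include, and its 5p arm shares the seed of the other miR-465 5p arms. Its 3p arm had 81 and 277 reads in WT, 13 and 15 in Dicer cKO, and 10, 2 and 3 in Drosha cKO sperm, and changed by -3.79 ± 0.71 and -3.88 ± 0.67 on the log2 scale (edgeR, adjusted p = 0.000616 and 0.000272). Its 5p arm, with 15 and 55 reads in WT, 4 and 1 in Dicer cKO, and 4, 1 and 1 in Drosha cKO sperm, changed by -3.87 ± 0.88 and -2.89 ± 0.85 (adjusted p = 0.00192 and 0.00938). These values lie inside the range of the members.

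Few other miRNAs of the X chromosome were called lower. Of 90 listed outside the cluster and miR-465d, 18 were tested, with 0 lower and 3 higher in Dicer cKO (median 0.90) and 1 lower and 7 higher in Drosha cKO (median 1.38). Over all 335 features tested, 31% were called lower in Dicer cKO and 33.1% in Drosha cKO. The shares called higher were 16.1% and 22.1%, so the 3 of 18 in Dicer cKO are near the share over all features. The 7 of 18 in Drosha cKO are above that share, and the difference was not tested. The 3 that rose in Dicer cKO were miR-221-3p and miR-222-3p, which come from 1 transcript, and miR-223-3p, a myeloid miRNA that is also among the blood markers below. The 1 that fell in Drosha cKO was miR-362-3p, at -2.28 ± 0.70 (edgeR, adjusted p = 0.0118). In the autosomal miR-34 and miR-449 family, miR-34b, miR-34c and miR-449a are known from spermatogenic cells. It had 5 of 6 tested arms lower in both knockouts, against 31% and 33.1% over all features, with medians of -5.30 and -3.86. The sixth, miR-34a-5p, which many tissues express, was higher in Dicer cKO by 2.04 ± 0.56 on the log2 scale (edgeR, adjusted p = 0.00700) and stood at 1.13 ± 0.52 in Drosha cKO (adjusted p = 0.0738).

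Markers of other cells moved with the groups. The 11 arms that mark epithelium (miR-200a, miR-200b, miR-200c, miR-141, miR-429 and miR-205) summed to 1.67% to 1.85% of listed reads in WT. The sum was 13.7% and 16.4% in Dicer cKO sperm and 11.9% to 14.7% in that of Drosha cKO, with 8 and 9 of 9 tested arms higher, against the 16.1% and 22.1% over all features, and none of the 11 at 0 in any group. The 14 blood marker arms, among them miR-451a of red cells and miR-150, miR-142 and miR-223 of leukocytes, summed to 0.528% and 0.544% in WT sperm, 5.16% and 5.17% in that of Dicer cKO, and 2.26% to 2.56% in that of Drosha cKO. Of 8 tested, 5 were higher in Dicer cKO, and 4 were higher and 1 lower in Drosha cKO, while 3, 4 and 6 of the 14 were at 0 throughout WT, Dicer cKO and Drosha cKO sperm. The 9 stroma arms (miR-143, miR-145, miR-199 and miR-214) summed to 0.342% to 0.854%, 1.95% to 2.73% and 1.14% to 1.77%, with 2 and 0 of 6 tested higher and 1, 0 and 1 of the 9 at 0 throughout a group, each in the order WT, Dicer cKO and Drosha cKO where 3 values are given.

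The male germ cell markers, a list that leaves out miR-34a, went with the cluster. Their sum was 16.4% and 18.3% of listed reads in WT sperm, 0.718% and 0.724% in that of Dicer cKO, and 1.47% to 2.49% in that of Drosha cKO. All 6 tested arms were lower in both knockouts, against 31% and 33.1% over all features, with medians of -5.47 and -4.04. Except for miR-184-3p, these are the miR-34b, miR-34c and miR-449a arms already counted above, so the lists are not separate. Of the 8 arms, 0, 2 and 1 were at 0 throughout WT, Dicer cKO and Drosha cKO sperm. The part that these markers, or the cell types they stand for, had in the fall of the cluster was not tested.

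Few reads of the cluster were found in oocytes and embryos. The oocyte library had 11 member reads among 5530 listed, a share of 0.199% (95% exact interval 0.0993 to 0.356), which is 32.6-fold lower than in the pooled WT sperm reads (18.2 to 65.3). The 2PN library from WT sperm had 8 among 3243, or 0.247% (0.107 to 0.485). That library was at 1.24 times the oocyte (0.433 to 3.39), so no difference between egg and embryo was detectable at this depth.

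Embryos made with knockout sperm had no detectable difference from those made with WT sperm either. The library from Dicer cKO sperm had 3 member reads among 2951 (0.102%, 0.0210 to 0.297), and that from Drosha cKO sperm had 10 among 8967 (0.112%, 0.0535 to 0.205). Of those 10, 3 lie 1 each on the rows of miR-465a-3p, miR-465b-3p and miR-465c-3p, which have the same sequence. Whether they are separate reads or 1 read entered 3 times is not known. The count, interval and ratio given here take them as 3. The ratios to the 2PN library from WT sperm were 0.412 (0.0704 to 1.72) and 0.452 (0.161 to 1.32). Each condition is 1 library, so the intervals cover counting error only, and there is no replicate check.

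Single members were near the limit of detection in these libraries. Counted by row, only miR-470-5p and miR-871-5p reached 3 reads in any of the 4. The 3p sequence shared by miR-465a, miR-465b and miR-465c was read in all 4. It had 1 read in the oocyte and 2 in the 2PN library made with WT sperm. The 2PN library made with Dicer cKO sperm had 1. The one made with Drosha cKO sperm had 3, or 1 if a single read was entered 3 times. miR-470-5p, the member with the smallest change in Drosha cKO sperm, had 6 reads in the oocyte, 2 in the 2PN library from WT sperm, 1 in that from Dicer cKO sperm and 0 in that from Drosha cKO sperm, while its partner miR-470-3p had none in any of them. Its sequence is given with that of the partner.
miR-470-5p: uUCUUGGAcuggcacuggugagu
miR-470-3p: aACCAGUAccuuucugagaaga
Its oocyte share was 0.108% (0.0398 to 0.236), at 1.77 times its share in WT sperm (0.642 to 3.91), an interval that includes equal shares. A count of 0 reads in the 2PN library from Drosha cKO sperm allows up to 0.0335% of listed reads. miR-871-5p had 1 read in the oocyte and 3 in the 2PN library from WT sperm, with 0 in both of those from cKO sperm. The most abundant sperm members, miR-743a-3p and miR-743b-3p, had no read in the oocyte or any 2PN library, where 0 reads allows up to 0.0335% to 0.102% of listed reads per library.

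Across the 7 sperm libraries, the features outside the cluster whose pattern was most like the mean of its 27 tested members were miR-19a-3p (Pearson r of log2 CPM 0.989), miR-466c-5p (0.988), miR-130b-5p (0.987), miR-103-3p (0.986) and miR-19b-3p (0.985). The members' own r with that mean, which includes them, ran from 0.865 to 0.989. Of 308 tested features outside, 47 had r over 0.9, and the points share their groups and library depths, with 2 WT against 5 cKO libraries. Likeness of pattern did not mean likeness of size, since miR-103-3p was at 9567 and 5873 CPM in WT and 3916 to 5717 in the cKO libraries, a log2 change of -1.54 in Dicer cKO. miR-19a-3p, a member of clusters known to promote cell growth, was at 30500 and 44121 CPM in WT and 3388 to 5716 in the cKO libraries, with log2 changes of -4.11 and -4.17.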

How the data were processed

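Small RNA libraries were sequenced on Ion Torrent Proton, per the labels, and the submitters' processing notes name Bowtie and the build mm10. For versions, the counting rule and the miRNA release, no source used here gives a value. The authors deposited raw read counts per feature, and also RPM values. Each deposited RPM value times 1 whole number per library gave back the count to within 1e-05. What that number counts is not given, and 0 columns of other samples were left out.

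Members were found by name. The members and comparison lists were chosen with earlier results of these data known. Counts of the 7 sperm libraries were fitted in edgeR 4.0.16 (R 4.3.3) with TMM factors, its default low-count filter (99.1 CPM in 2 libraries, 15 reads in all), 4 residual degrees of freedom and Benjamini-Hochberg adjustment over 335 features, two-sided, at a threshold of 0.05. Standard errors come from the F statistic. CPM and shares use listed reads alone. Shares carry 95% exact (Clopper-Pearson) intervals, ratios of counts exact conditional intervals, and 0 reads a limit of 3 reads. PCR reads without molecular identifiers are not independent molecules, so these cover counting error only.

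Named members were the 12 highest in WT sperm, the other arms of their hairpins, the extremes of change, and those with at least 3 reads in an oocyte or 2PN library. Alternatives were other scalings and filters, DESeq2 1.42.0, limma 3.58.1 on log2(RPM + 1), a replicate block, the compared groups alone and leaving out libraries. Sequences and places are from RefSeq on GRCm38.p6. The oocyte and 2PN libraries have no replicates and entered no test.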

Additional observations from a re-analysis of the deposited data

How the results depend on the processing

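None of the 27 members tested in the main fit changed direction against WT under any of the 17 alternatives. Their 457 alternative values for Dicer cKO and 456 for Drosha cKO were all below 0. These counts include the 7 members that passed the main filter only through WT. Their direction was fixed, so their values add no support here. Members that only a looser filter let in are not among the 457 and 456 values. Of those values, 439 and 448 stayed on their side of the threshold, and the 18 lost calls for Dicer cKO fell on 6 members and the 8 for Drosha cKO on 1. Members called lower numbered 22 (limma) to 28 for Dicer cKO and 26 to 28 for Drosha cKO, and leaving out 1 library gave 25 to 27 and 26 to 28. The number tested varied with the setting. Without the filter 23 and 26 of 33 tested members were called lower, and at 10 CPM in 2 libraries 25 and 26 of 30. Without Drosha cKO replicates 2 and 3 together they were 28 and 26. No alternative called a member between the knockouts, also with 1 library left out (0 to 0). Dicer calls lost outside the removal of a library were those of miR-871-3p, miR-743b-5p, miR-470-5p, miR-878-5p and miR-463-3p (highest adjusted p 0.337, 0.201, 0.118, 0.074 and 0.0584). For Drosha cKO, miR-743b-5p was also lost with library totals alone, without the filter, at 10 CPM in 2 libraries, with DESeq2 and with the replicate block (edgeR or DESeq2, adjusted p = 0.0947, 0.125, 0.0692, 0.0577 and 0.0921). The cause was not tested. The log2 ratio of the summed share of Drosha cKO over WT sperm moved from -3.05 to -4.26 on the authors' divisor, and without 1 library it ran from -3.21 to -2.82 (Dicer cKO -3.75 to -3.54). Library totals alone moved the median of all features to 0.60 and 1.04, the divisor to 0.88 and -0.04, and dropping the filter to -1.23 and -0.85; relative to these, the members' medians were -4.16 and -4.17, -4.60 and -4.43, and -2.27 and -3.22. The labels do not say that replicate numbers pair libraries, and same-numbered libraries deviated together with correlations of 0.181 to 0.312 over only 2 shared numbers. With the replicate block, 27, 26 and 0 of 27 members were called for Dicer cKO, Drosha cKO and between them. Drosha cKO replicates 2 and 3, with 12003 and 15921 listed reads, limit what can be said of members with few reads.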
